A study of Mus musculus with 18 samples.

Results

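The genes described here are the p53 family and the genes that hold p53 in check, measured in mouse lung after exposure to a mixture of polycyclic aromatic hydrocarbons (PAHs). They are 7 of the 20660 genes named on the array and are read by 11 of its 55681 probes that are not controls. The members were taken by name, with earlier results of these data known. They are every probe whose RefSeq accession belongs to Trp53, Trp63 and Trp73 (the family) or to Mdm2, Mdm4, Ppm1d and Rchy1 (the restraining genes). Male mice of the transgenic strain MutaTMMouse, aged about 12 weeks, received the 4PAH-Mix in olive oil by gavage on 28 consecutive days, and lungs were taken 72 hours after the last dose. The mixture holds benzo(a)pyrene (BaP), benz(a)anthracene, benzo(b)fluoranthene and chrysene. The groups were vehicle (olive oil alone, 5 mice) and the low (12.5, 4 mice), medium (25, 5 mice) and high (50, 4 mice) doses in mg BaP equivalents/kg-bw/day. All mice, controls included, carried the strain's transgene and received the oil. Each array carried the Cy5-labelled lung RNA of 1 mouse beside Cy3-labelled Universal Mouse Reference RNA, a pool from 11 mouse cell lines, without a dye swap.

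p53, the product of Trp53, is a transcription factor that is stabilised when DNA is damaged and switches on genes for cell cycle arrest, repair and cell death. Benzo(a)pyrene is converted in tissue to products that bind DNA and so call on this pathway. p53 is held low by a feedback circuit, in which it raises transcription of Mdm2, the ubiquitin ligase that marks p53 for destruction, and of Ppm1d, the phosphatase that reverses its activating phosphorylation. The array reads RNA and not protein, so the amount of p53 protein was not measured.

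Each value is a log2 ratio of lung to reference RNA, and a fold change is the difference of 2 group means of it. A probe was called where limma's p, adjusted over all probes of a comparison, was at most 0.05 and the change at least 1.5-fold. For a gene with several probes, the brightest stands for it. Between 51.5% and 61% of probes were well above background in Cy5 on an array, the median Cy5 intensity was between 107 and 135, and precision is limited by the number of arrays. The 18 arrays lay on 3 slides of 8, 6 and 4 arrays, each with mice of all 4 groups. The column on the slide followed the dose, so column and dose cannot be told apart. Lung identity was checked by marker: Sftpc, the surfactant protein of alveolar type II cells, had a mean log2 ratio of 7.29 in vehicle mice.

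At the high dose Mdm2 rose, and Trp53 and the brighter probe of Mdm4 (an inhibitor of p53 related to Mdm2) fell. These were 3 of the 7 members, where 1.51% of all named genes were called. The second Mdm4 probe was not called (limma adjusted p = 0.366). The count of members depended on the processing described below, with 1 called from the Cy5 channel alone and 0 under median centring. At the medium dose 1 of 7 was called, Mdm2, against a background of 0.934%. At the low dose limma called none of 7, against 0.16%, while 5 had an unadjusted p under 0.05, as had 9.26% of named genes. By the adjusted p alone, without the fold limit, the members that passed were 1, 4 and 5 of 7 in the order of dose, where 0.247%, 4.82% and 5.61% of named genes did. The members that passed without reaching the fold limit were Mdm2 at the low dose, Trp53, Mdm4 and Ppm1d at the medium dose, and Trp63 and Ppm1d at the high dose. In 5 of 7 members the high-dose mice did not overlap the vehicle mice, a pattern seen in 10.7% of named genes. This held for 4 of 7 at the medium dose, beside 5.96%, and for 4 of 7 at the low dose, beside 3.35%. Because the members were chosen with earlier results of these data known, these counts are a description. The members did not move as a block. At each dose 4 had a positive and 3 a negative fold change.

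**Figure D1:**
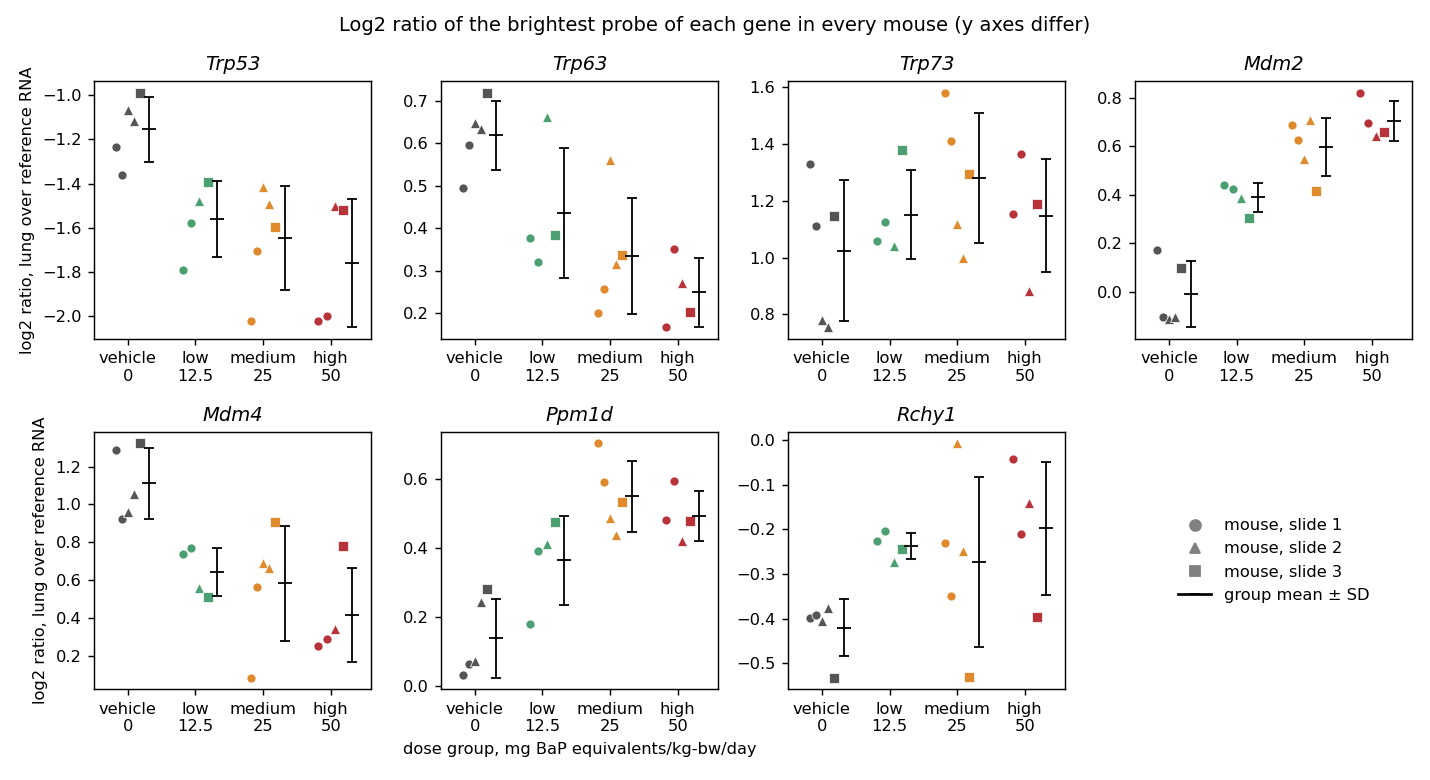
Log2 ratio of lung over reference RNA (y axis, scale differing between panels) in each mouse by dose group in mg BaP equivalents/kg-bw/day (x axis). Points are mice, symbols mark the slide, and bars give the group mean ± SD over 4 or 5 mice. All exposed mice lie above all vehicle mice for Mdm2 and below them for Trp53 and Mdm4.

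The upstream sequences of the called genes and of Ppm1d are shown because these genes moved in opposite directions. RefSeq windows of the 250 bases before the transcript start (build GRCm38.p6) were found for 6 of the 7 members, 9 windows in all, and for no Trp63 transcript. Both strands were searched for the p53 consensus half-site (purines, C, A or T, A or T, G, then pyrimidines), for GCGTG, the core bound by the aryl hydrocarbon receptor that PAHs activate, for the E-box CACGTG and for the cyclic AMP response element TGACGTCA. The windows are Trp53 at chr11:69580109-69580358 on the plus strand, Mdm2 at chr10:117710759-117711008 on the minus strand, Ppm1d at chr11:85311004-85311253 on the plus strand and, of the 2 for Mdm4, the one at chr1:133030588-133030837 on the minus strand. They read 5′ to 3′ along the gene, with every motif match in capitals.
Trp53: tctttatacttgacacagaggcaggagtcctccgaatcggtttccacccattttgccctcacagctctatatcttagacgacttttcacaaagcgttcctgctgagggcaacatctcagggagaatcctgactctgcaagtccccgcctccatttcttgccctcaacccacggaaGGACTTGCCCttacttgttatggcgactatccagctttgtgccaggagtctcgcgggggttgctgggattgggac
Mdm2: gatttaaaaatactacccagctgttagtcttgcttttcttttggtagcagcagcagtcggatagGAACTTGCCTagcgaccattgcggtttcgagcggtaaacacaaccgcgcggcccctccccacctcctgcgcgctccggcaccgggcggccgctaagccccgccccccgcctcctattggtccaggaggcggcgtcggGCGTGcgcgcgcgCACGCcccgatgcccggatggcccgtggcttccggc
Ppm1d: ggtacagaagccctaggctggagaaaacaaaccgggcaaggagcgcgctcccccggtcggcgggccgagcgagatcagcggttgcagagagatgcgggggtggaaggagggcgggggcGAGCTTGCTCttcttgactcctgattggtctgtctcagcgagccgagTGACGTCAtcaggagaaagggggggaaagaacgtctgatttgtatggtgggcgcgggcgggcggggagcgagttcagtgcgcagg
Mdm4: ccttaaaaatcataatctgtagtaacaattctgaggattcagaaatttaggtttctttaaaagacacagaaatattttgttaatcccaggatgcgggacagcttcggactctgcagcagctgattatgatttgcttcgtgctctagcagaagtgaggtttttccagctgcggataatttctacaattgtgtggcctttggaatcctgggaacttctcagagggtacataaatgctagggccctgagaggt

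A p53 half-site begins 75 bases before the start in Trp53, 186 in Mdm2 and 132 in Ppm1d. With 1 window of Rchy1, 4 of 9 member windows held a half-site, and 7.13% of 32851 windows over all genes did. A pair of half-sites at most 13 bases apart, the arrangement of a full p53 site, was in no member window and in 0.0639% of all windows. The response elements through which p53 is known to drive Mdm2 lie in its first intron, outside this window. GCGTG was in 4 of 9 member windows and in 28.2% of all. In Mdm2 it stood once on each strand, 49 and 36 bases before the start. TGACGTCA was in Ppm1d, 85 bases before the start, and in 1.55% of all windows. CACGTG was in 6.02% of all windows and in no member window. Neither Mdm4 window held any of these motifs. These are matches of letters and not measured binding.

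Trp53 RNA was lower in every exposed mouse than in every vehicle mouse. Its log2 ratio was -1.24, -1.36, -1.07, -1.12 and -0.99 in the 5 vehicle mice. It was -1.79, -1.58, -1.48 and -1.39 at the low dose, -2.02, -1.71, -1.42, -1.49 and -1.60 at the medium dose, and -2.02, -2.00, -1.50 and -1.52 at the high dose. No dose group overlapped the vehicle group, while the dose groups overlapped each other. The group means fell in the order of dose, from -1.15 ± 0.15 (SD, n = 5) to -1.56 ± 0.17 (SD, n = 4), -1.65 ± 0.24 (SD, n = 5) and -1.76 ± 0.29 (SD, n = 4). The high-dose log2 fold change was -0.61 (95% confidence interval -0.88 to -0.34, limma adjusted p = 0.00834), a level 0.657 of vehicle. Trp53 also fell at the medium dose, by 0.49 on the log2 scale (adjusted p = 0.0264), short of the fold limit. That result did not pass when medium-dose mouse 11 or 12 or vehicle mouse 3, 4 or 5 was left out, with an adjusted p of up to 0.0826. The low-dose value was -0.41 (adjusted p = 0.33). Two-sided exact permutation tests, not adjusted for the 66 such tests of member probes, gave p = 0.0159, 0.00794 and 0.00794 in the order of dose, the last being the smallest that groups of this size allow.

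The Trp53 probe is dim, with a median Cy5 intensity of 227.5 over a local background of 74.1, though it was well above background on all 18 arrays. Its values also moved with the slide. Mice on slide 1 read -0.33 relative to the others at the same dose (adjusted p = 0.0472), and both lowest high-dose mice were on that slide. With the slide as a block in the fit, the high-dose change was -0.57 (adjusted p = 0.000293), just under 1.5-fold, so that the gene was no longer called, and the medium-dose adjusted p was 0.000934. Within slides 1, 2 and 3 the high-dose differences were -0.71, -0.41 and -0.53. All 9 within-slide differences from vehicle, over 3 doses and 3 slides, were negative. The high-dose call was also lost, with values between -0.52 and -0.58, when high-dose mouse 16 or 17 or vehicle mouse 3 or 5 was left out, each time because the change dropped under 1.5-fold. From the Cy5 channel alone the change was -0.48 (adjusted p = 0.00466), again under 1.5-fold. Under median centring, where a single median per array replaces the loess curve, it was -0.45 (adjusted p = 0.825). With the scanner software's own ratios the medium-dose change was larger, at -0.78 (adjusted p = 0.0141), and was called. In bulk tissue, fewer cells that carry a transcript and less transcript per cell cannot be told apart.

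**Figure D2:**
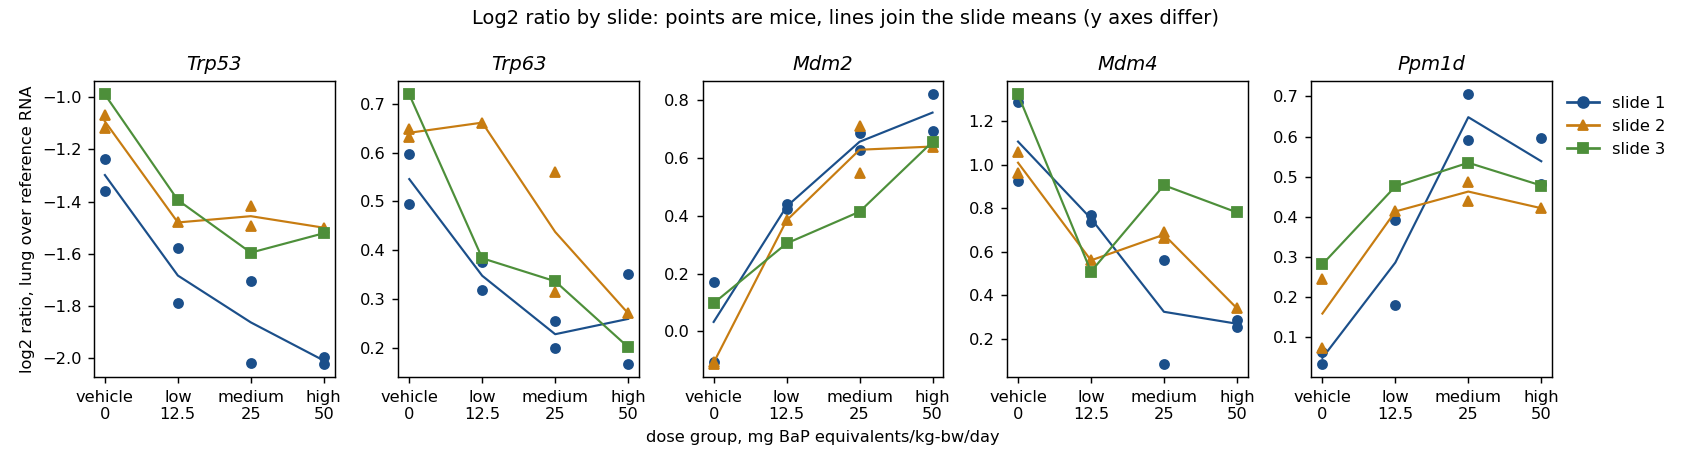
Log2 ratio over reference RNA (y axis, scale differing between panels) against dose group in mg BaP equivalents/kg-bw/day (x axis), with points for mice, and lines joining the means of each slide. Trp53 reads lower on slide 1 at each dose, while in all 3 slides Trp53 and Mdm4 are lower, and Mdm2 and Ppm1d higher, in each dose group than in vehicle.

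Trp63 encodes p63, the family member that maintains basal cells of stratified and airway epithelium. Its brightest probe (A_55_P2161055) had a median Cy5 intensity of 2708 and was well above background on all 18 arrays. It read 0.49, 0.60, 0.65, 0.63 and 0.72 in vehicle mice. The ratios were 0.38, 0.32, 0.66 and 0.38 at the low dose, 0.20, 0.26, 0.56, 0.31 and 0.34 at the medium dose, and 0.17, 0.35, 0.27 and 0.20 at the high dose. The high-dose mice all lay below the vehicle mice, and the other doses overlapped vehicle. The high-dose fold change of -0.37 passed the adjusted p (95% confidence interval -0.55 to -0.19, adjusted p = 0.0143) without reaching 1.5-fold. The medium-dose value was -0.28 (adjusted p = 0.053) and the low-dose value -0.18 (adjusted p = 0.607). The other probe of the gene (A_51_P216550), designed to another accession, had a median Cy5 intensity of 89.5 over a background of 76.5. It was well above background on 3 of 18 arrays, 1 vehicle and 2 high-dose. Only a bound on its level is known in the low and medium groups, and no fold change is read from it. With this near-background probe averaged in, the high-dose value was -0.15 (adjusted p = 0.312). The result of the brightest probe also did not pass under median centring (-0.11, adjusted p = 0.954) or without high-dose mouse 16 (-0.34, adjusted p = 0.0609). The Trp63 probes thus differ widely in level, and which transcripts each reads was not analysed here.

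Of 5 basal cell markers with a probe, Krt15 alone was called, and upward, at 0.68 (adjusted p = 0.012) at the medium and 0.87 (adjusted p = 0.00229) at the high dose. Over all named genes 0.934% and 1.51% were called at these doses. Krt5, the defining keratin of airway basal cells, was well above background on 9 of 18 arrays and its high-dose difference was -0.05 (adjusted p = 0.94). Krt17 was well above background on none. The summed Cy5 intensity of the 5 ranged from 557 to 661 in vehicle, 564 to 693 in low-dose, 576 to 919 in medium-dose and 684 to 864 in high-dose mice. Only 1 of the 5, Krt14, was well above background on all 18 arrays, so the sum also holds background signal. The part of the sum in the Trp63 values was not tested.

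Trp73 encodes p73, which acts in nerve cells and in the program of multiciliated cells. None of its 3 probes passed the adjusted p at any dose. The brightest (A_52_P410636) read 1.33, 1.11, 0.78, 0.76 and 1.15 in vehicle and 1.15, 1.36, 0.88 and 1.19 in high-dose mice. The groups overlapped almost wholly. Its fold changes were 0.13, 0.26 and 0.12 in the order of dose, with a 95% confidence interval of -0.15 to 0.40 at the high dose. A change of 1.5-fold either way lies outside that interval for these ratios, which are not background-subtracted. The probe is dim, with a median Cy5 intensity of 280 over a background of 75. With the scanner software's own ratios the high-dose value was 0.15 with a standard error of 0.28, in place of 0.13, so the bound rests on the processing. The other probes gave 0.24 and -0.09 at the high dose and thus did not share a sign. All 3 probes differed between slides (adjusted p of the slide term 0.0233, 0.0231 and 0.00884), as 2.73% of all probes did. Among 10 markers of multiciliated cells none was called at any dose, and the summed Cy5 intensity of the 10 ranged from 17684 to 27297 in vehicle, 22581 to 38215 in low-dose, 20674 to 31721 in medium-dose and 17198 to 33651 in high-dose mice. Over all named genes 0.16%, 0.934% and 1.51% were called in the order of dose. The part of the sum in the Trp73 values was not tested.

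Mdm2 was the member with the smallest adjusted p at every dose and the only one called at more than 1 dose. Its log2 ratio was 0.17, -0.11, -0.11, -0.10 and 0.10 in vehicle mice. It was 0.44, 0.42, 0.38 and 0.30 at the low dose, 0.69, 0.63, 0.55, 0.71 and 0.41 at the medium dose, and 0.82, 0.69, 0.64 and 0.66 at the high dose. All 13 exposed mice lay above all 5 vehicle mice, and all 4 high-dose mice above all 4 low-dose mice. The means were -0.01 ± 0.14 (SD, n = 5), 0.39 ± 0.06 (SD, n = 4), 0.60 ± 0.12 (SD, n = 5) and 0.70 ± 0.08 (SD, n = 4). The fold change was 0.40 at the low dose (95% confidence interval 0.23 to 0.57, adjusted p = 0.0465), 0.61 at the medium dose (0.45 to 0.77, adjusted p = 0.000108) and 0.71 at the high dose (0.54 to 0.88, adjusted p = 2.07e-05). On the linear scale these are 1.32-fold, 1.52-fold and 1.64-fold.

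The Mdm2 probe is bright, with a median Cy5 intensity of 7182, and was saturated on no array. Within slides its differences from vehicle ran from 0.32 to 0.74 at the medium and from 0.56 to 0.75 at the high dose, and the slide term did not pass (adjusted p = 0.555). The medium-dose change sat so close to 1.5-fold that leaving out vehicle mouse 2, 3 or 4 or medium-dose mouse 14 took it to 0.58, just under the limit, with adjusted p between 0.000476 and 0.000629. It was also not called from the Cy5 channel alone (0.52, adjusted p = 0.000137) or under median centring (0.75, adjusted p = 0.315). The high-dose call held with any 1 mouse left out, at 0.67 to 0.76. Median centring gave a larger high-dose change with a wider error, 0.91 (standard error 0.20, adjusted p = 0.108). The low-dose result did not pass the adjusted p of 0.05 in the fit of these groups alone (adjusted p = 0.133) or in 15 of the 18 fits with 1 mouse left out (up to 0.15), and over all alternatives its adjusted p ran from 0.00897 to 1.

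Mdm4 encodes a relative of Mdm2 that blocks the activation domain of p53 without marking it for destruction by itself. Its brighter probe (A_55_P2081388) read 1.29, 0.92, 0.96, 1.06 and 1.32 in vehicle mice. The ratios were 0.74, 0.77, 0.56 and 0.51 at the low dose, 0.08, 0.56, 0.69, 0.66 and 0.91 at the medium dose, and 0.25, 0.29, 0.34 and 0.78 at the high dose. All exposed mice lay below all vehicle mice, the nearest pair being medium-dose mouse 15 and vehicle mouse 2, and the dose groups overlapped each other. The fold change was -0.47 at the low dose (adjusted p = 0.26), -0.53 at the medium dose (adjusted p = 0.0246) and -0.70 at the high dose (95% confidence interval -0.98 to -0.41, adjusted p = 0.00461), the last a level 0.617 of vehicle. Without medium-dose mouse 15 the medium-dose change was -0.61 (adjusted p = 0.0122) and was called, while without medium-dose mouse 11 or 12 or vehicle mouse 1 or 5 it did not pass, with an adjusted p of up to 0.0701.

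The second Mdm4 probe, of the same accession, did not share this fall beyond its error. Probe A_52_P485905 is dimmer, with a median Cy5 intensity of 149.5 over a background of 74.3. It read 0.10, 0.23, 0.28, 0.08 and -0.08 in vehicle and 0.02, 0.00, -0.17 and -0.17 in high-dose mice, which overlap. Its high-dose difference was -0.20 (95% confidence interval -0.42 to 0.02, adjusted p = 0.366), and those at the low and medium dose were -0.18 and -0.12. The mean of both probes gave -0.45 (adjusted p = 0.00403), under the fold limit. The high-dose call of the brighter probe was lost as well from the Cy5 channel alone (-0.58, adjusted p = 0.0237) and under median centring (-0.52, adjusted p = 0.795), and held with the slide as a block (-0.70, adjusted p = 0.00203). Which transcripts each probe reads was not analysed here.

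**Figure D3:**
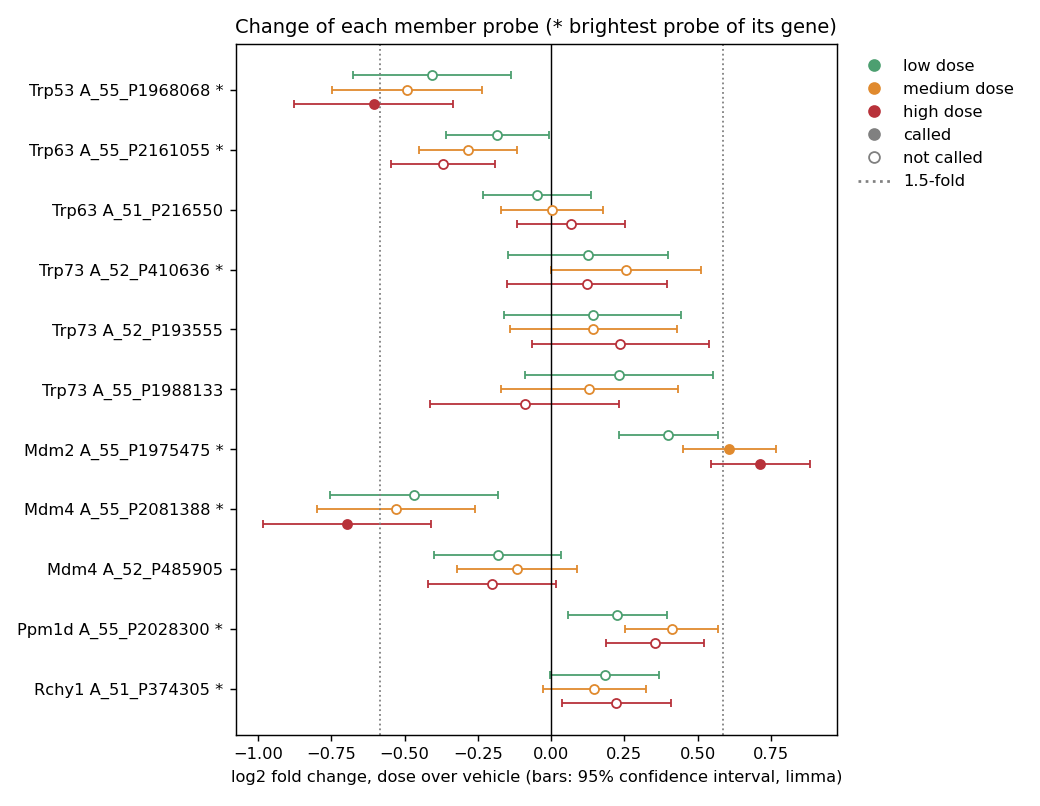
Log2 fold change of each dose over vehicle (x axis) with its 95% confidence interval from limma, for the 11 probes (y axis, an asterisk marks the brightest probe of a gene). Filled points were called, and dotted lines mark 1.5-fold. The called values are Mdm2 at the medium and high dose and Trp53 and the brighter Mdm4 probe at the high dose.

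Ppm1d encodes the phosphatase WIP1, which shuts off p53 and the kinases that activate it. Its log2 ratio was 0.03, 0.06, 0.07, 0.24 and 0.28 in vehicle mice. It was 0.18, 0.39, 0.41 and 0.48 at the low dose, 0.70, 0.59, 0.49, 0.44 and 0.53 at the medium dose, and 0.48, 0.60, 0.42 and 0.48 at the high dose. Medium-dose and high-dose mice all lay above the vehicle mice, and 1 of the 4 low-dose mice overlapped them. The fold change was 0.23 at the low dose (adjusted p = 0.42), 0.41 at the medium dose (95% confidence interval 0.25 to 0.57, adjusted p = 0.00355) and 0.35 at the high dose (95% confidence interval 0.19 to 0.52, adjusted p = 0.0135). Ppm1d thus rose at the medium and high dose by the adjusted p, and both intervals lie below 1.5-fold. The mean was higher at the medium than at the high dose, by a difference within the spread between mice (-0.06, adjusted p = 1). Neither result passed under median centring (0.45 at each dose, adjusted p = 0.996 and 0.751). The high-dose result also did not pass without high-dose mouse 17 (0.32, adjusted p = 0.0603).

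Rchy1 encodes Pirh2, a further ubiquitin ligase for p53 that p53 induces. Its log2 ratio was -0.40, -0.39, -0.40, -0.38 and -0.53 in vehicle mice. It was -0.23, -0.20, -0.27 and -0.24 at the low dose, -0.23, -0.35, -0.01, -0.25 and -0.53 at the medium dose, and -0.04, -0.21, -0.14 and -0.40 at the high dose. Low-dose mice all lay above the vehicle mice (two-sided exact permutation test, p = 0.00794, not adjusted), while 1 mouse of the medium and 1 of the high dose overlapped them. The fold changes of 0.18, 0.15 and 0.22 had adjusted p of 0.633, 0.445 and 0.204. The high-dose interval of 0.04 to 0.41 lies below 1.5-fold.

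No member was called between any pair of doses by limma. Against the low dose, the high dose gave adjusted p of 0.367 to 0.999 for the brightest probes, and 2 of 7 had an unadjusted p under 0.05, namely Mdm2 and Trp63, beside 7.12% of named genes. For Mdm2 the difference was 0.31 (95% confidence interval 0.14 to 0.49, adjusted p = 0.367). Its groups did not overlap, as in 4% of named genes (two-sided exact permutation test, p = 0.0286, the smallest that 4 against 4 allows). In that comparison 0.0823% of named genes were called, and none (0%) was called between medium and low or between high and medium. At an unadjusted p under 0.05 those comparisons held 2 members (Mdm2 and Ppm1d, both higher at the medium dose), beside 5.4% of named genes, and 0 members, beside 3.87%. The order of means by dose in Mdm2, Trp53, Trp63 and Mdm4 therefore includes neighbouring doses whose difference did not pass the adjusted p.

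The members can be set against the rest of the pathway by its roles. Among 19 genes that activate or stabilise p53, such as Atm and Prkdc (kinases of the DNA damage response) and Crebbp (a histone acetyltransferase that works with p53), none was called at any dose. Over all named genes 0.16%, 0.934% and 1.51% were called in the order of dose. The median high-dose fold change of the 19 was 0.04, beside 0.02 over all named genes. Of the 19, 16 were well above background on all arrays. By the adjusted p alone, and named after their values were seen, Atm (0.32, adjusted p = 0.0347) and Prkdc (0.34, adjusted p = 0.015) rose and Crebbp (-0.33, adjusted p = 0.0295) fell at the high dose. Among 20 further genes that restrain p53, mostly ubiquitin ligases and deacetylases, 1 was called at each dose and the median high-dose change was 0.01. It was Ccng1, cyclin G1, which recruits a phosphatase to Mdm2 and is itself a p53 target. Its fold change was 0.89, 1.31 and 1.68 in the order of dose (adjusted p = 0.00201, 1.4e-06 and 5.42e-08). The other 19 genes of this list were not called. With 1.51% of named genes called at the high dose, that count does not set Mdm2 or the brighter Mdm4 probe apart. Of these 19, Trim24 (0.48, adjusted p = 0.00178) and Cul9 (0.50, adjusted p = 0.00611), named after their values were seen, passed the adjusted p at the high dose, where 5.61% of named genes did.

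Many genes that p53 is known to switch on rose. Of 25 on the list, 6, 10 and 11 were called higher in the order of dose and none lower, with medians of 0.29, 0.43 and 0.49. These counts and medians include genes near background, as 21 of the 25 were well above it on all arrays. Over all named genes 0.16%, 0.934% and 1.51% were called in either direction. The largest high-dose changes were those of Gdf15, a secreted stress cytokine (2.88), Cdkn1a, the cell cycle inhibitor p21 (2.47), Phlda3, an inhibitor of Akt (1.66), and Aen, a nuclease of apoptosis (1.42). Bax, a pore-forming protein of apoptosis, followed at 1.24, Zmat3 at 1.23, Trp53inp1 at 1.23 and the DNA polymerase Polk at 0.96. The high-dose change of Mdm2, itself a p53 target, lay below 10 and above 15 of the 25. Among the targets that did not pass, Btg2, Perp, Fas and Ddb2 are named after their values were seen, and their high-dose values lay between -0.05 and 0.10. The target genes were chosen with earlier results of these data known, so these counts are a description.

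**Figure D4:**
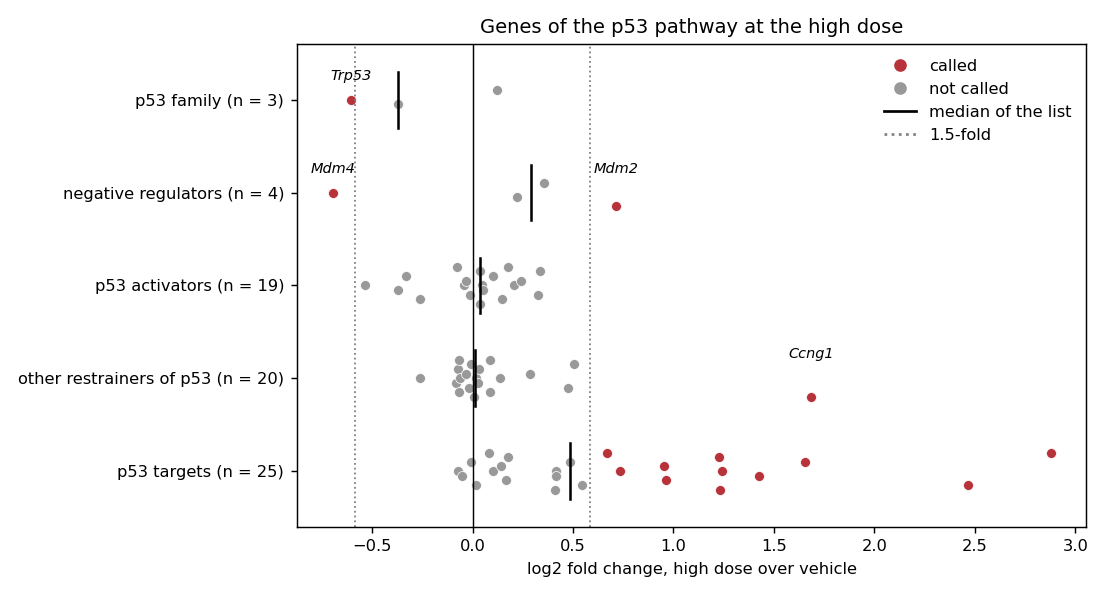
Log2 fold change of the high dose over vehicle (x axis) for the genes of 5 lists (y axis). Each point is the brightest probe of a gene, red where called, black bars mark list medians and dotted lines 1.5-fold. The p53 targets reach 2.88, Ccng1 stands alone in its list at 1.68, and the p53 activators hold no called gene.

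The genes whose log2 ratios over the 18 arrays followed each member most closely were found among 13423 named genes well above background on all arrays. Because groups, slides and the reference channel are shared, these Pearson correlations describe these arrays only. For Mdm2 they were Trp53inp1 (r = 0.952), Phlda3 (0.949), Aen (0.949), Gdf15 (0.946) and Inka2 (0.943), of which the first 4 are on the p53 target list. For Trp53 they were Slc16a13 (0.914), Khsrp (0.904), Ctdsp1 (0.897), Mfsd13a (0.897) and Rprd1b (0.894), none of them on that list. Mdm4 went with Zmynd8 (0.945), Utrn (0.909), Sh3d19 (0.905), Mllt10 (0.898) and Oga (0.892). Ppm1d went with Camk1 (0.95), Ercc3 (0.941), a helicase of transcription and excision repair, Nsun6 (0.928), Cyp2b9 (0.925) and Rragc (0.923). Trp63 was closest to Crebbp (0.958), Trp73 to Fam187b (0.878) and Rchy1 to Cdan1 (0.875).

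Markers of other cells also differed between groups. Over all named genes 0.16%, 0.934% and 1.51% were called in the order of dose. Of 7 genes of cytotoxic lymphocytes, Gzma, a protease of their granules, alone was called, falling at the high dose by 2.25 on the log2 scale (adjusted p = 0.00208). Prf1 passed the adjusted p there (-0.41, adjusted p = 0.0409) without reaching 1.5-fold, and the rest did not pass. Among them, Cd8a had positive values at each dose (0.23, 0.22 and 0.21). The summed Cy5 intensity of the 7 ranged from 4919 to 12622 in vehicle, 3568 to 8703 in low-dose, 4018 to 8700 in medium-dose and 3288 to 5203 in high-dose mice. Of 4 B cell genes, Cd79b (0.70, adjusted p = 0.0419) and Ms4a1 (0.70, adjusted p = 0.0258) were called higher at the medium dose and none at the other doses, with sums of 3845 to 8035 in vehicle, 6643 to 13473 at the low dose, 6691 to 14104 at the medium dose and 7683 to 11138 at the high dose. Of 6 genes of dividing cells none was called and all had positive values at each dose, with sums of 4734 to 7509 in vehicle, 5029 to 9003 at the low dose, 5554 to 9859 at the medium dose and 5544 to 10283 at the high dose. Cdk1, 1 of the 6, was well above background on no array, so its sign is not read. Mcm2, a subunit of the replicative helicase, passed the adjusted p at the high dose (0.53, adjusted p = 0.0148) without reaching 1.5-fold. Of 7 genes of lung epithelium and endothelium, the endothelial Pecam1 was called higher at the medium (0.69) and high (0.74) dose. The other 6 had negative values at both doses and did not pass the adjusted p, among them the endothelial Cdh5 at -0.23 (adjusted p = 0.439) and -0.10 (adjusted p = 0.817), and the sums lay between 1087810 and 1522425 over all mice. The sums, here and above, add Cy5 intensities that were not normalized between arrays. They therefore also carry the brightness of each array, and the brightest genes weigh most in them. The part of the marker differences in the values of the members was not tested.

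The direction of every member against vehicle, on its brightest probe, was the same at each dose under all 13 other ways of processing and with each mouse left out. Of the 13, 8 gave other fold changes and 5 left them as they were, so only the 8 could have shown a change of direction. Among those 5, Aquantile normalization changed neither the test nor the call, and the rest bear only on the test or the call. Over these ways of processing, Trp53 ranged at the high dose from -0.81 with the scanner software's own ratios to -0.45 with median centring, Mdm4 from -0.74 to -0.45, Mdm2 from 0.61 to 0.91 and Ppm1d from 0.34 to 0.45. With 1 mouse left out the ranges were -0.69 to -0.52 for Trp53, -0.82 to -0.64 for Mdm4, 0.67 to 0.76 for Mdm2 and 0.32 to 0.39 for Ppm1d. Over the ways of processing, the adjusted p ran from 0.000293 to 0.825 for Trp53, 0.00203 to 0.795 for Mdm4, 1.66e-05 to 0.108 for Mdm2, 0.00517 to 0.751 for Ppm1d and 0.00202 to 0.954 for Trp63, with the highest value under median centring in each.

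**Figure D5:**
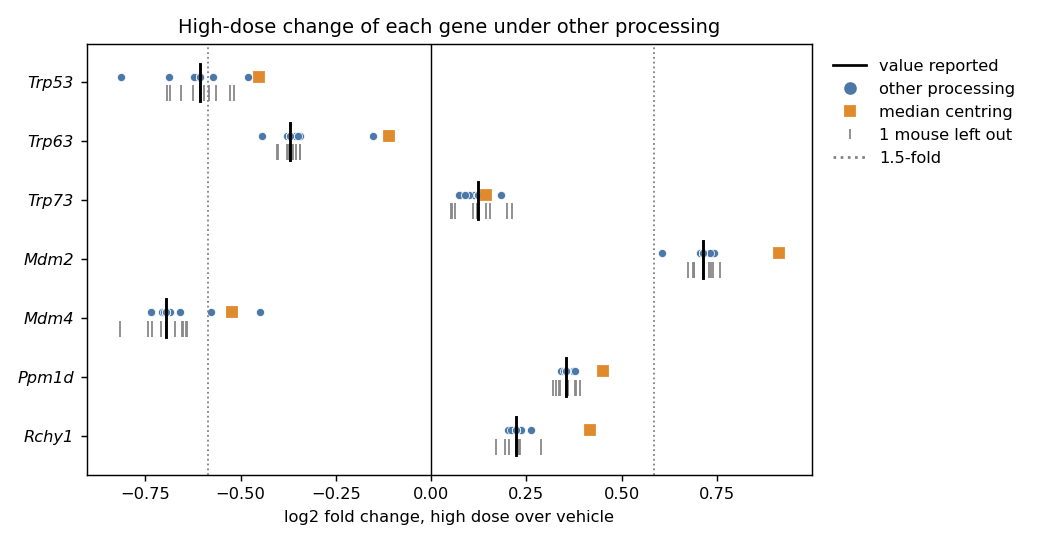
High-dose log2 fold change over vehicle (x axis) of the 7 genes (y axis) as reported (black bars), under other processing (blue points, orange squares for median centring) and with 1 mouse left out (grey ticks). No gene crosses 0, while Trp53 and Mdm4 cross the dotted 1.5-fold line.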

How the data were processed

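Lung RNA of 18 mice in 4 groups was measured on 2-colour arrays. For each array the authors deposited its scanner output (Feature Extraction 11.0.1.1 per the file headers), which holds median intensity values of both channels, not background-subtracted, and a log10 ratio of Cy5 over Cy3 after the software's own dye normalization. They also deposited a table of log2 ratios normalized within arrays.

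Log2 ratios of the median intensities were normalized here within arrays by loess (limma 3.58.1 under R 4.3.3), with control and outlier spots (215 to 307 per array) given no weight and left out. Spots of a probe were averaged. All 4 groups were fitted together with limma, without covariates, and p-values were adjusted by Benjamini-Hochberg within each of 6 comparisons over 55681 probes. The paper's threshold was kept. Its MAANOVA test was not run, and limma's stands in for it. Accessions were named through RefSeq (27235 probes). The scripts were tested on simulated data.

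All 7 members are named. Of the pathway lists, genes called at a dose are named, at most 8 per list by high-dose change, and for each member up to 5 genes of like pattern. Atm, Prkdc, Crebbp, Trim24, Cul9, Btg2, Perp, Fas, Ddb2 and the markers of other cells were named outside this rule, after their values were seen. Members and lists were chosen with earlier results of these data known. Nothing states litters or cages, so the p-values take each mouse as independent. Each array carried 1 mouse, so the spread behind them holds mouse, array and slide differences together.

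Alternatives were normexp background correction (offset 50), the scanner ratios, the deposited table, median centring, scale and Aquantile normalization, the Cy5 channel alone, the slide as a block, a filter on dim probes, only the groups compared, adjustment over 3 doses together, no fold limit, the mean of a gene's probes and each mouse left out. Within-slide values were added after the slide difference in Trp53 was seen.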

Additional observations from a re-analysis of the deposited data

Results flagged for a closer look

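In 2 of 44 groups of 4 or 5 mice, 1 mouse stood apart from the rest of its group by Dixon's criterion, which chance meets in about 1 of 20. High-dose mouse 20 had an Mdm4 log2 ratio of 0.78 on the brighter probe, with the nearest mouse of its group at 0.34. Without it the high-dose change of Mdm4 was -0.82 in place of -0.70. Vehicle mouse 5 had an Rchy1 log2 ratio of -0.53, with the nearest vehicle mouse at -0.40.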

How the results depend on the processing

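Against vehicle, no member changed direction under any alternative. At the medium dose, 1 member was called, and 2 with the scanner ratios, none under median centring or from the Cy5 channel alone, 4 without the fold limit, and 0 to 2 with 1 mouse left out. The high dose gave 3 calls, none under median centring, 1 from Cy5 alone, 2 with the slide as a block or the mean of a gene's probes, 5 without the fold limit, and 2 to 3 with 1 mouse left out. The low dose gave 1 without that limit. Differences between doses, none called, turned sign near 0. Trp73 between high and low was 0.0084 with normexp, 0.0475 with the scanner ratios, 0.057 with scale normalization, 0.0036 in the deposited table, and -0.0751 to 0.0855 with 1 mouse left out. Between medium and low, Rchy1 was 0.0052 with the scanner ratios and -0.1021 to 0.0285 with 1 mouse left out, Mdm4 was 0.0023 as the mean of its probes and -0.1423 to 0.0629 with 1 mouse left out, and Trp53 was -0.1631 to 0.007 with 1 mouse left out. Rchy1 between high and low was -0.0122 to 0.1052 with 1 mouse left out, and Ppm1d between high and medium was 0.0349 from Cy5 alone. The cause was not tested. No scaling moved the median of all probes by over 0.1. No paired analysis was possible because no mouse number is shared between groups, and the slide, which all groups share, was fitted as a block instead. Signal over background limits the dim probes of Trp53, Trp73, Mdm4 and Trp63.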
